A study of Sus scrofa with 12 samples.

Results

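The genes of the cytosolic ribosomal proteins and of their paralogs were described in the testis and epididymis of an inbred line of small pigs (Banna mini-pig inbred line, BMI). Members are the rows of the gene count tables whose name is RPL, RPS or RPLP followed by a number, with the RPS6 kinases left out. The rule found 56 of 30640 rows. Of these, 50 are core members, with 21 of the small subunit, 27 of the large subunit and 2 of its P-stalk. The other 6 are paralogs, namely RPL10L, RPL3L, RPL7L1, RPL26L1, RPL36AL and RPS27L. A gene name table paired another 6 rows, listed by identifier only, with core genes (RPLP1, RPS29, RPL14, RPS24, RPS25 and RPS2), and these are given beside the members but not counted among them. Of 76 core genes looked up, 20 were matched by neither name nor identifier and are not analysed here, nor are FAU, RPL39L, RPL22L1 and the parents RPL36A and RPS27.

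The ribosome is the machine that makes protein. Its small subunit reads the messenger RNA and its large subunit joins the amino acids. Most of its proteins are present in a single copy per ribosome, and their messenger RNAs share a 5′ terminal oligopyrimidine (TOP) tract through which mTOR signalling and LARP1 control their translation. The P-stalk, made of RPLP0 with RPLP1 and RPLP2, recruits translation factors. A few paralogs are used in certain tissues. RPL10L is an autosomal copy of the X-linked gene RPL10 that is known from male germ cells, in which the X chromosome is silenced during meiosis. RPL3L is known from heart and skeletal muscle.

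Testis, where sperm form, and epididymis, the duct in which they mature, were each sampled from 5 untreated adult boars, with 1 library per tissue and boar. Animal numbers in the file headers pair the tissues within boars. All boars were 12 months old by the labels, but the file headers list 12, 12, 11, 17 and 11 months for replicates 1 to 5. Levels are reads per 1000000 reads of the library (CPM), or, to compare genes, also per kilobase of the gene length in the files (RPKM).

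Library totals were 18715154 to 30211957 reads in testis and 17980578 to 21937263 in epididymis. Testis replicate 4 stood apart from the other testis libraries. Small structural RNA rows took 15042 to 16185 CPM in testis 1, 2, 3 and 5, but 70.8 in testis 4 and 71.7 to 132 in epididymis. Mitochondrial genes took 5238 to 8323 CPM in those 4 testis libraries, 16159 in testis 4 and 17840 to 64534 in epididymis. Histone rows took 2030 to 2915, 76.1 and 59.8 to 295 CPM in the same order. The tissue labels were matched by their markers in all libraries, testis 4 included: 8 germ cell markers summed to 11210 to 12189 CPM in the other testis libraries, 13103 in testis 4 and 20.6 to 401 in epididymis. The epididymal markers found (3 of 5) summed to 46.2 to 72.9, 127 and 9214 to 23270 CPM, and CRISP1 and SPINK14 had at most 3 reads in testis. Testis 4 is also the boar with 17 months in the header, so age and library content cannot be told apart there. Means over all 5 testis libraries include it, and its own value is given beside many of those that it moves.

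The core members were lower in testis. They summed to 10293, 10030, 10184, 17221 and 11102 CPM in testis 1 to 5, and to 41687, 46801, 34017, 39885 and 35846 CPM in epididymis 1 to 5. This is 1.00% to 1.11% of all reads in testis 1, 2, 3 and 5, 1.72% in testis 4 and 3.40% to 4.68% in epididymis. All testis libraries lay below all epididymis libraries, and testis 4 lay between the other testis libraries and epididymis. The mean log2 difference was -1.78, which is 3.43-fold lower in testis (exact two-sided permutation test, p = 0.00794, the smallest possible for 5 against 5). An exact exchange within boars gave p = 0.0625, which is the smallest p that 5 pairs allow. Without testis 4 the level was 3.79-fold lower. With the small RNA, histone and mitochondrial rows left out of the totals, the difference was -1.79, but this changes only the scaling. Testis 1, 2, 3 and 5 differed from every epididymis library in these rows, so tissue and library content cannot be told apart there. Testis 4 was near epididymis in its small RNA and histone reads. With it as the only testis library, the median log2 fold change of the core members was -1.16, against -1.87 with all 5. The part of library content in the fall was not tested.

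Gene by gene, 47 of 50 core members fell in testis and 1 rose, and RPLP0 and RPL29 did not pass the test (edgeR quasi-likelihood test over 17225 genes, adjusted p under 0.05). Over all genes tested, 37.8% were called lower and 36.6% higher. The median log2 fold change, testis over epididymis, was -1.87 over the core members and -0.07 over all genes. All 21 small subunit members fell, with a median of -1.74, and so did 26 of 29 large subunit and stalk members, with a median of -2.01. The fitted fall was at least 2-fold for 44 members and at least 4-fold for 23, but no count over all genes was made at these cuts. In 47 of 50 members all 5 testis libraries lay below all 5 epididymis libraries, against 29.3% of all genes. In whole tissue, fewer cells of a type and less RNA per cell cannot be told apart. Most marker lists of other cells differed between the tissues. Smooth muscle markers summed to 221 to 371 CPM in testis and 5134 to 14162 in epididymis, fibroblast markers to 213 to 598 and 1045 to 3662, and macrophage markers to 5.58 to 18.0 and 49.6 to 131. Leydig markers (4 of 5 found) summed to 12071 to 19252 in testis and 26.3 to 33.6 in epididymis, and Sertoli markers to 283 to 329 and 82.8 to 156. Lymphocyte markers (3 of 4 found) were low in both, at 8.40 to 11.2 CPM in testis and 4.16 to 7.77 in epididymis. Red cell markers overlapped, at 2.96 to 17.4 and 11.4 to 66.8 CPM. Their part in the fall was not tested.

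**Figure D1:**
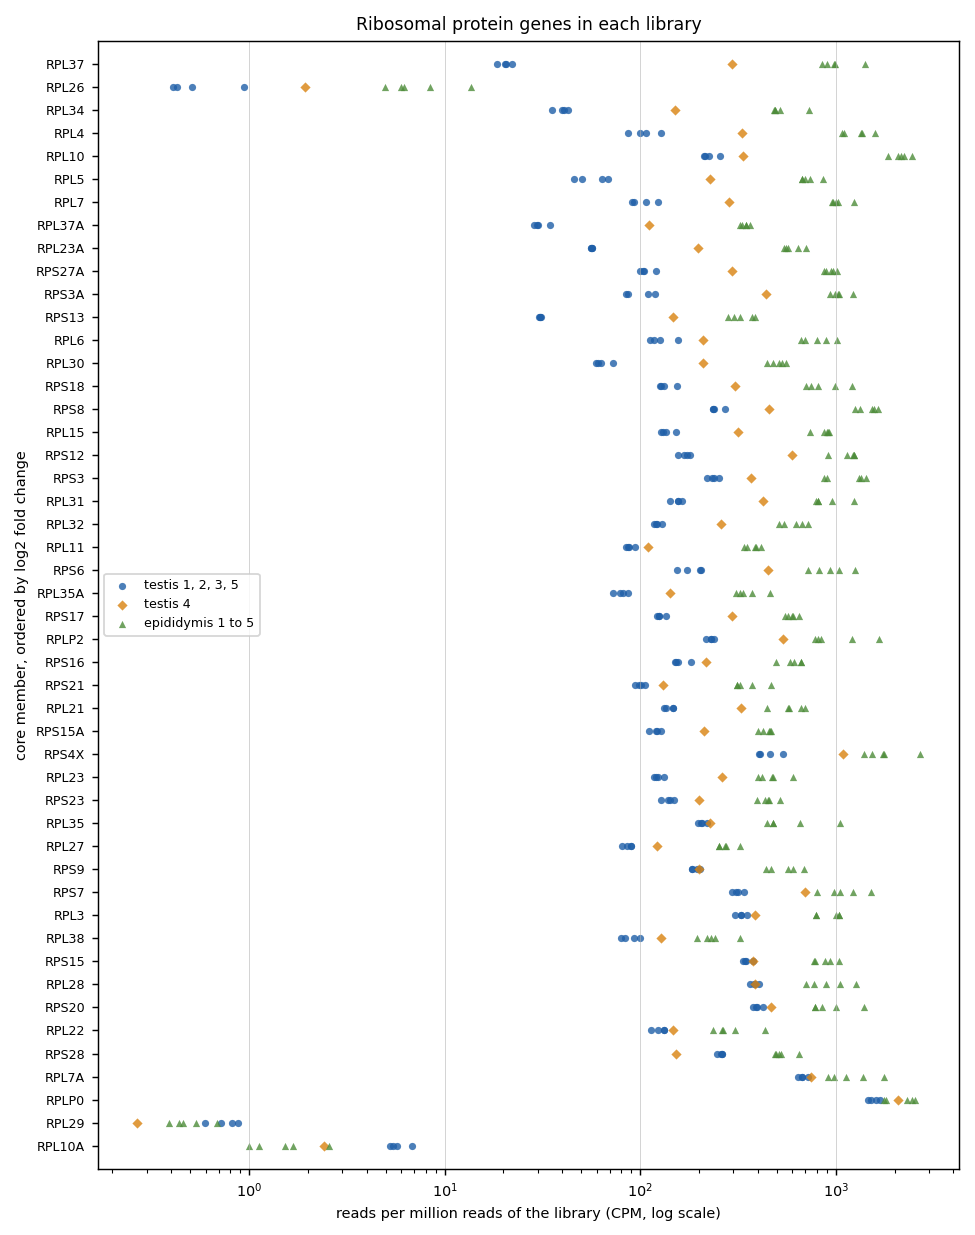
Level of 48 of the 50 core members in each library, in CPM on a log scale, with members ordered by log2 fold change from the lowest in testis at the top. Circles are testis 1, 2, 3 and 5, diamonds testis 4 and triangles epididymis; in 41 of them the diamond lies between the circles and the triangles.

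RPL37, a zinc finger protein of the large subunit, had the largest fall. It was at 20.6, 18.6, 20.4, 295 and 22.1 CPM in testis 1 to 5 and at 980, 1407, 855, 987 and 901 CPM in epididymis 1 to 5. Testis 4 held 14.4 times the mean of the other testis libraries, so the fold depends on that library. The log2 fold change was -3.79 (SE 0.84, adjusted p = 0.00145, edgeR) with all libraries and -5.63 without testis 4.

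RPL34, of the large subunit, followed the same order of libraries, with 40.6, 39.9, 35.3, 150 and 42.7 CPM in testis and 491, 734, 481, 519 and 489 CPM in epididymis. Its log2 fold change was -3.14 (SE 0.42, edgeR adjusted p = 2.9e-05), and -3.75 without testis 4. RPL4, a large subunit protein that lines the exit tunnel for the new chain, was at 107, 99.3, 87.1, 331 and 127 CPM in testis and at 1346, 1583, 1104, 1369 and 1083 CPM in epididymis. Its log2 fold change was -3.11 (SE 0.37, edgeR adjusted p = 1.25e-05). In both genes the tissues did not overlap and testis 4 was the highest testis library.

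RPL10 lies on the X chromosome (Sscrofa11.1, X, 124927249 to 124929791, counted from 1 over the whole gene) and joins the large subunit late in its assembly. It was at 215, 224, 212, 334 and 255 CPM in testis 1 to 5 and at 2093, 2244, 1859, 2466 and 2146 CPM in epididymis 1 to 5. The spread within each tissue was small against the gap between them, and testis 4 was 1.48 times the mean of the others. The log2 fold change was -3.11 (SE 0.20, edgeR adjusted p = 9.79e-08), an 8.63-fold fall. RPS4X, the other X-linked member and a small subunit protein, was at 406, 536, 409, 1095 and 462 CPM in testis and at 1763, 1539, 1397, 1735 and 2704 CPM in epididymis. It fell by 1.65 on the log2 scale (SE 0.32, edgeR adjusted p = 0.000529), close to the median of the core members.

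The P-stalk members differed from each other. RPLP0 was at 1612, 1454, 1514, 2083 and 1681 CPM in testis and at 2445, 2311, 1807, 2555 and 1771 CPM in epididymis, and here the tissues overlapped. Its log2 fold change was -0.37 (SE 0.19, edgeR adjusted p = 0.0936). The call depends on single libraries: the adjusted p was 0.0269 without testis 4 and 0.0423 without epididymis 3. RPLP2, one of the acidic stalk proteins that bind RPLP0, was at 237, 218, 230, 538 and 231 CPM in testis and at 1216, 1655, 782, 807 and 843 CPM in epididymis. It fell by 1.87 (SE 0.33, edgeR adjusted p = 0.000274). RPLP1, matched by identifier, fell by 2.27 (SE 0.40, edgeR adjusted p = 0.000259), from a mean of 2146 ± 245 CPM (SD, n = 5) in epididymis to 446 ± 355 in testis, with 1081 CPM in testis 4. Without that library RPLP1 fell by 2.87.

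RPL7A, of the large subunit, had a small fall, with a log2 fold change of -0.83 (edgeR adjusted p = 0.0043). RPS28, a short small subunit protein, was at 246, 262, 260, 153 and 264 CPM in testis and at 527, 651, 495, 490 and 511 CPM in epididymis, so that testis 4 was the lowest library. It fell by 1.15 (SE 0.21, edgeR adjusted p = 0.000295). RPSA, the small subunit protein also known as a laminin receptor, fell from 1235 ± 165 to 543 ± 56.8 CPM (SD, n = 5 each), a log2 fold change of -1.17 (edgeR adjusted p = 6.23e-05). For RPSA, testis 4 was at 619 CPM and the other testis libraries at 461 to 559. The 6 rows matched by identifier all fell, with a median log2 fold change of -1.87, where 37.8% of all genes were called lower.

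RPL26, RPL29 and RPL10A were near 0 in both tissues. RPL10A was at 5.69, 6.85, 5.28, 2.40 and 5.42 CPM in testis and at 1.53, 2.57, 1.69, 1.00 and 1.13 CPM in epididymis, so testis 4 overlapped with epididymis. It is the core member that rose, by 1.71 (SE 0.37, edgeR adjusted p = 0.0013). RPL29 ranged from 0.267 to 0.879 CPM in testis and from 0.389 to 0.684 in epididymis, and did not pass the test (log2 0.41, edgeR adjusted p = 0.325). RPL26 was at 0.410 to 1.92 CPM in testis and 4.95 to 13.6 in epididymis. Every other core member was at 18.6 CPM or more in every library. These 3 genes are uncertain, since reads of near-identical copies may have been divided between rows or left out, and the counting setting for them is not given in the sources used here.

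Testis 4 lay above the other 4 testis libraries in 43 of 50 core members, against 40.6% of all genes. In 42 of 50 it also lay below all epididymis libraries, against 13.2% of all genes. Its median ratio to the mean of the other testis libraries was 1.83, from 0.355 in RPL29 to 14.4 in RPL37. RPL29, RPS28 and RPL10A were among those below the other testis libraries, and RPS9, RPL28, RPS15 and RPLP0 lay within their range or that of epididymis. When testis 4 was the only testis library in the fit, with its spread taken from the epididymis libraries, 25 of 50 core members were called lower and 0 higher, against 11.4% and 23.4% of 18896 genes. At an unadjusted p under 0.05 it had 34 lower and 0 higher, against 19.1% and 27.7% of all genes. Without testis 4, 48 core members were called lower and 1 higher, against 38.2% and 37.9% of 18013 genes.

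Levels per kilobase also differed widely among the members of each tissue. In testis the highest by mean RPKM included RPLP0 (1306 ± 194, SD, n = 5), RPS28 (637 ± 127), RPLP2 (589 ± 280) and RPS7 (532 ± 232). RPLP0 was the highest, by more than the spread, whereas RPS28, RPLP2 and RPS7 lay within each other's. That overlap depends on testis 4, where RPS28 was at 412, RPLP2 at 1088 and RPS7 at 945 RPKM. Over testis 1, 2, 3 and 5, RPS28 was at 694 ± 21.1 (SD, n = 4), above RPLP2 (464 ± 16.1) and RPS7 (429 ± 26.7). In epididymis the highest included RPLP2 (2147 ± 762), RPLP0 (1704 ± 286), RPS18 (1614 ± 377) and RPL10 (1552 ± 159), and all 4 lay within the spread of their neighbours.

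The lowest in testis were RPL37 (16.7), RPL37A (11.9), RPL10A (0.860), RPL26 (0.750) and RPL29 (0.533 RPKM). Testis 4 raises both of the highest of these means: over testis 1, 2, 3 and 5 RPL37 was at 4.54 RPKM and RPL37A at 7.78. Those of epididymis were RPL11 (79.4), RPL22 (49.0), RPL26 (6.95), RPL29 (0.407) and RPL10A (0.266 RPKM). The median member was at 90.4 RPKM in testis and 352 in epididymis. The order between genes depends on the gene models, because the lengths in the files run from 372 bases (RPS28) to 7433 (RPL4), with a median of 1676, and 21 of the 50 core rows are at least 2000 bases long. Ratios of a gene between libraries do not depend on its length.

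The SD over members of log2 RPKM was 1.98 ± 0.03 in testis and 2.06 ± 0.06 in epididymis (n = 5 each), over the 48 core members with at least 10 reads in every library. The difference of -0.083 passed the exact permutation test (two-sided p = 0.0317), but the interquartile range gave the opposite sign (0.174, p = 0.230), and an exact exchange within boars gave p = 0.1875. It was also lost (exact permutation p = 0.0635) without testis 1, 4 or 5 or epididymis 1, 4 or 5. The log2 ratio of summed small to summed large subunit RPKM was 0.216, 0.328, 0.291, 0.0522 and 0.252 in testis 1 to 5 and 0.153, 0.0237, 0.116, 0.110 and 0.227 in epididymis 1 to 5. The tissues overlapped, and the difference of 0.10 did not pass the exact permutation test (two-sided p = 0.111). Without testis 4 it was 0.15 (exact permutation p = 0.0317), and as a difference of subunit medians 0.67 (p = 0.00794).

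Relative to the summed core reads, 17 of 50 members were called lower in testis and 12 higher (edgeR over 17225 genes). The sum weighs the most abundant members most, and the median core member was at -0.16 on this scale. On this scale 10.1% of all genes were called lower and 67.4% higher, and the median of all genes moved to 1.68. Without testis 3 the count of higher members was 7. In 15 members the size of the shift exceeded 1 on the log2 scale, but no count over all genes was made at this cut. The lower members were led by RPL37 (-2.36, SE 0.64, adjusted p = 0.00474; -3.71 without testis 4), RPL26 (-1.53), RPL34 (-1.51), RPL4 (-1.45) and RPL5 (-1.41). RPL5, which binds the 5S ribosomal RNA, took 0.547% of core reads on average in testis 1, 2, 3 and 5, 1.32% in testis 4 and 1.86% in epididymis. The higher members were led by RPL10A (3.58), RPL29 (2.19), RPLP0 (1.40) and RPL7A (0.98). Of these leading members, RPL26, RPL10A and RPL29 are the uncertain ones near 0. Of the X-linked members, RPL10 was lower relative to the core (-1.37, SE 0.19, adjusted p = 2.59e-05) and RPS4X had a shift of 0.02 (adjusted p = 0.953).

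**Figure D2:**
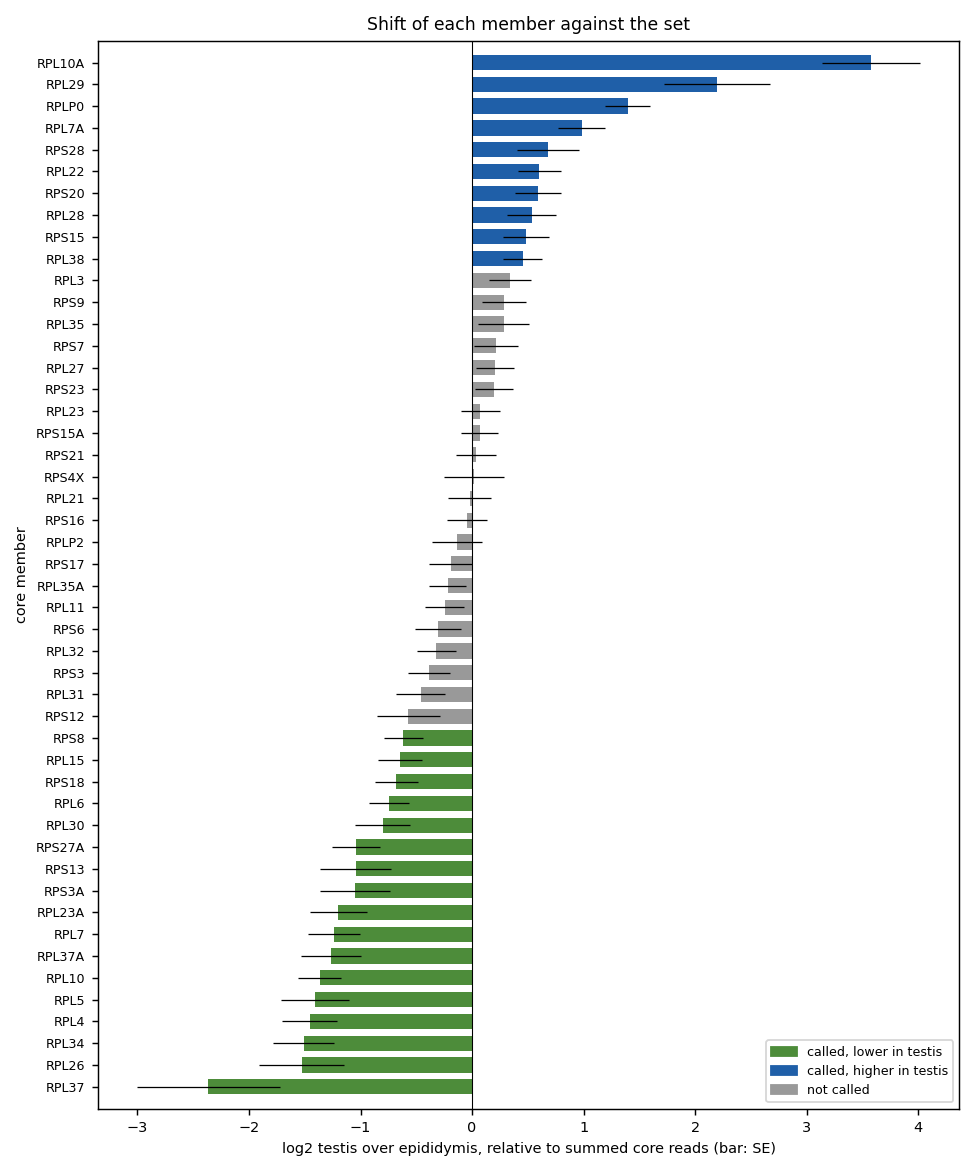
Log2 ratio of testis over epididymis for 48 of the 50 core members, with every library scaled to its summed core reads. Bars are edgeR estimates with approximate standard errors, green and blue bars passed an adjusted p of 0.05 (17 lower, 10 higher among those drawn) and grey bars did not (21).

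The shares of core reads show the same members without a model. RPLP0 took 15.0% ± 0.49 of core reads in testis 1, 2, 3 and 5 (SD, n = 4), 12.1% in testis 4 and 5.49% ± 0.64 in epididymis (n = 5). RPL37 took 0.196% ± 0.007, 1.71% and 2.57% ± 0.25, and RPL10 took 2.17% ± 0.11, 1.94% and 5.49% ± 0.60. RPLP0 and RPL10 in testis 4 lay on the side of the other testis libraries, whereas RPL37 in testis 4 lay nearer to epididymis. RPS3A, of the small subunit, took 0.956% ± 0.13, 2.56% and 2.64% ± 0.16, and RPS13 took 0.296% ± 0.013, 0.857% and 0.842% ± 0.046. For both genes testis 4 lay nearer to epididymis than to the other testis libraries.

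Over the 48 members, the median size of the log2 ratio of shares was 0.0622 to 0.0845 between any pair of testis 1, 2, 3 and 5, and 0.114 to 0.249 between epididymis libraries. It was 0.530 to 0.793 between those testis libraries and epididymis. Testis 4 differed from the other testis libraries by 0.498 to 0.559 and from epididymis by 0.240 to 0.367, so its proportions were nearer to epididymis. The epididymis of the same boar was the one farthest from it, at 0.367. These distances were added after the data were seen and carry no test. Without testis 4, 22 members were called lower and 14 higher relative to the core, against 10.3% and 69.0% of all genes. With testis 4 as the only testis library, RPL10 was called lower (adjusted p = 0.0159) and RPLP0 higher (adjusted p = 0.0221), and no other core member passed the test. The low small RNA and histone reads of testis 4 move with these shares, and their part was not tested.

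**Figure D3:**
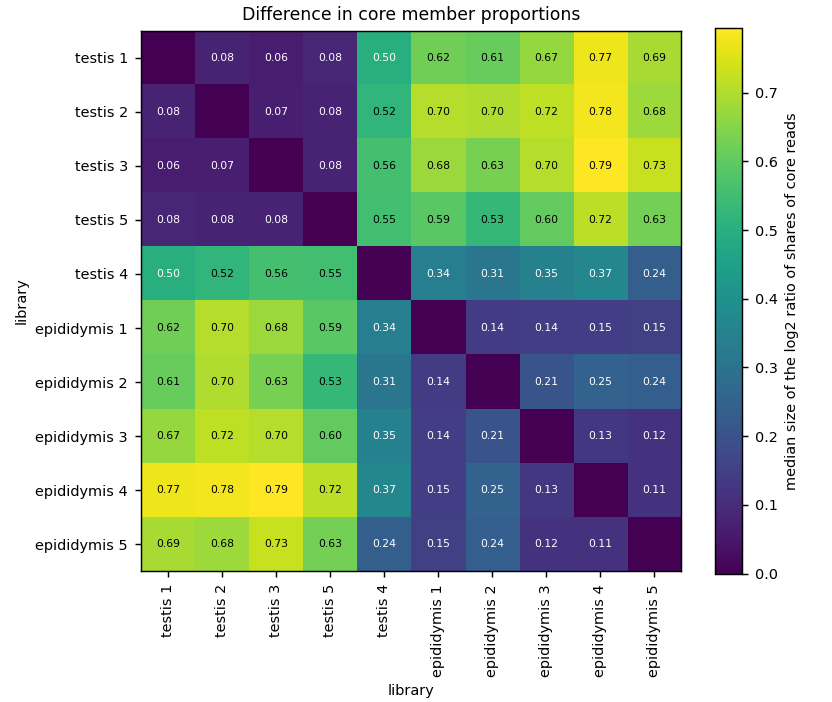
Difference in core member proportions between each pair of libraries, as the median size of the log2 ratio of shares of core reads over 48 members. Testis 1, 2, 3 and 5 form a block under 0.09, and testis 4 stands nearer to the epididymis libraries (0.240 to 0.367) than to the other testis libraries (0.498 to 0.559).

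Of the 6 paralogs, RPL10L rose in testis and the other 5 fell, although the call of RPL3L depends on the fit. Among all genes, 36.6% were called higher and 37.8% lower. RPL10L (Sscrofa11.1, chromosome 1, 176603177 to 176604116, the whole gene) was at 103, 112, 111, 85.0 and 112 CPM in testis 1 to 5. In epididymis it was at 0.102, 0, 0.775, 0.278 and 0.245 CPM, from 2, 0, 17, 5 and 5 reads. A count of 0 allows 3 reads, or 0.164 CPM in epididymis 2. All testis libraries stood far above all epididymis libraries, and testis 4 was the lowest of testis. The log2 fold change was 8.51 (SE 0.59, edgeR adjusted p = 1.88e-07), and 9.33 without epididymis 3. Germ cell markers were at 401 CPM in epididymis 3, the library with the most RPL10L reads of that tissue, and at 20.6 to 58.4 CPM in the other 4, and their part was not tested.

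Per kilobase, RPL10L made up 50.8%, 51.9%, 53.1%, 35.4% and 48.7% of the reads of RPL10L and RPL10 together in testis 1 to 5. In epididymis it made up 0.011%, 0%, 0.090%, 0.024% and 0.025%. By this measure the paralog was about level with its parent in testis 1, 2, 3 and 5 and below it in testis 4. It depends on the lengths in the files, 645 bases for RPL10L and 1393 for RPL10. The log2 ratio of their counts was -1.18 to -0.93 in testis 1, 2, 3 and 5 and -1.98 in testis 4. The log2 ratio of paralog to parent counts was 12.26 higher in testis (exact two-sided permutation test, p = 0.00794, adjusted over 4 pairs 0.0106), or 10.89 with 5 reads added in place of 0.5. The reads of both genes added came to 313 to 372 RPKM in testis and 1336 to 1771 in epididymis. Over the median core member of the library, RPL10 alone was at 2.10 to 2.23 in testis 1, 2, 3 and 5, 1.61 in testis 4 and 3.74 to 4.96 in epididymis. With RPL10L added, this was 4.34 to 4.63, 2.49 and 3.74 to 4.96. That sum was computed after the data were seen and carries no test.

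**Figure D4:**
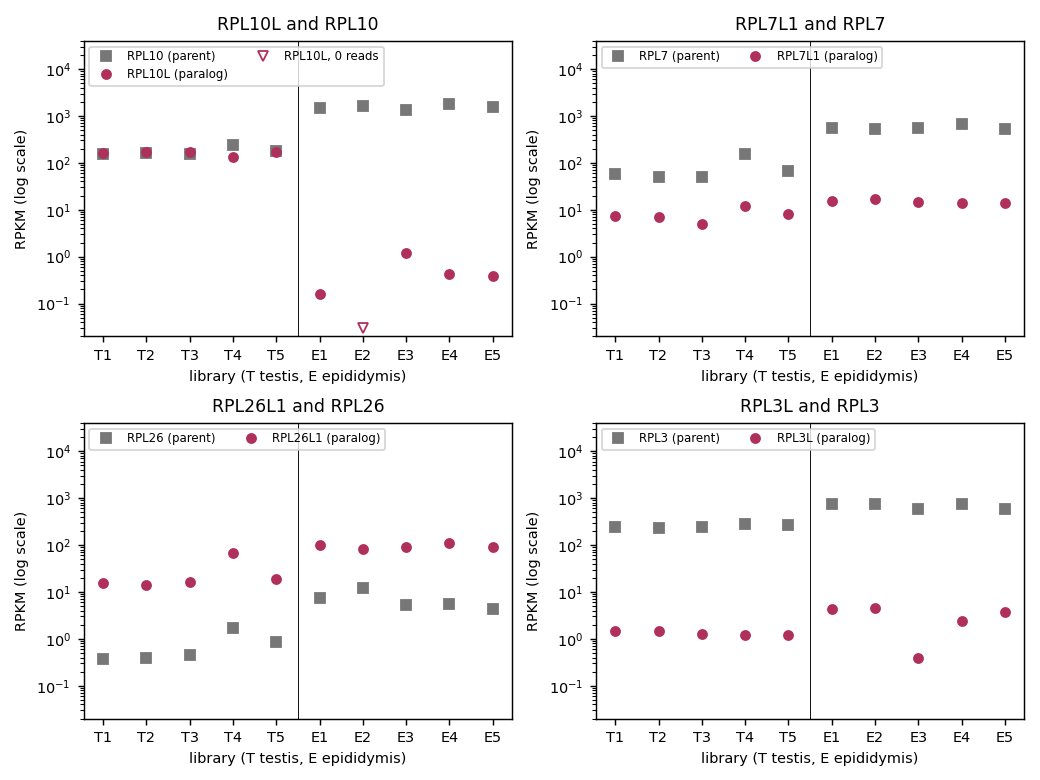
RPKM on a log scale of 4 paralogs (circles) and their parents (squares) in each testis (T) and epididymis (E) library, with an open triangle for 0 reads. By this measure, which depends on the gene lengths in the files, RPL10L stands about level with RPL10 in testis 1, 2, 3 and 5. In epididymis it stands far below RPL10.

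RPL7L1, which takes part in large subunit assembly, was at 19.6, 18.4, 13.4, 31.5 and 21.8 CPM in testis and at 41.5, 45.3, 39.2, 37.3 and 37.4 CPM in epididymis. It fell less than its parent RPL7, which was at 107, 93.4, 90.8, 286 and 123.1 CPM in testis and at 1033, 971, 1007, 1233 and 954 CPM in epididymis. The log2 fold changes were -0.93 and -2.88, where the median of all genes was -0.07. Relative to the core, RPL7L1 shifted by 0.80 and RPL7 by -1.24, and the median gene was at 1.68 on that scale. RPL7L1 thus did not rise against the typical gene. RPL7L1 made up 10.2% ± 2.0 of the reads per kilobase of the pair in testis and 2.64% ± 0.38 in epididymis (SD, n = 5), with 7.13% in testis 4, and the log2 ratio was 2.05 higher in testis (exact permutation p = 0.00794, adjusted over 4 pairs 0.0106).

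RPL26L1 was at 8.86, 8.04, 9.21, 37.7 and 10.3 CPM in testis and at 54.9, 46.9, 50.1, 62.3 and 52.1 CPM in epididymis, and fell by 1.84 (SE 0.41, edgeR adjusted p = 0.00142). Without testis 4 it fell by 2.52. Relative to the core it was not called (-0.26, edgeR adjusted p = 0.446), but without testis 4 it was called lower (-0.64, edgeR adjusted p = 0.00741). It made up 97.1% ± 0.84 of the pair's reads per kilobase in testis and 93.1% ± 3.35 in epididymis, since the RPL26 row was near 0. The log2 ratio was 1.21 higher in testis (exact permutation p = 0.00794, adjusted over 4 pairs 0.0106), but the pair is near-identical and the division of its reads is uncertain. The nearest libraries were testis 5 at 3.43 and epididymis 5 at 3.39. With 5 reads added in place of 0.5, the difference was 0.89 (exact permutation p = 0.0238, adjusted over 4 pairs 0.0317). Testis 5, at 3.20, then lay below epididymis 4 and 5, at 3.28 and 3.33. RPL3L was at 3.18, 3.24, 2.73, 2.73 and 2.71 CPM in testis and at 9.57, 10.02, 0.866, 5.28 and 8.13 CPM in epididymis, with epididymis 3 below every testis library. Its fall of 1.21 (SE 0.50, edgeR adjusted p = 0.0455) did not pass the test without any single testis library, nor without epididymis 1, 2 or 5. It was also lost with boar as a block (adjusted p = 0.150), with DESeq2's size factors in edgeR (0.0676) and without the small RNA, histone and mitochondrial rows (0.0508). Its ratio to RPL3 did not differ beyond the spread (log2 0.63, exact permutation p = 0.413). An exact exchange within boars gave p = 0.0625 for RPL10L, RPL7L1 and RPL26L1, the smallest it can give.

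The other 2 paralogs fell too. RPL36AL, a copy of RPL36A, was at 63.1, 58.3, 63.7, 107 and 69.7 CPM in testis and at 145, 175, 150, 173 and 132 CPM in epididymis, a log2 fold change of -1.09 (edgeR adjusted p = 0.000187). It fell less than the core, with a relative shift of 0.64 (edgeR adjusted p = 0.0036). On that scale 67.4% of all genes were called higher and the median gene was at 1.68. RPS27L, a copy of RPS27 known as a p53 target, was at 6.92, 6.65, 6.34, 17.5 and 8.05 CPM in testis and at 27.9, 33.6, 27.0, 29.98 and 37.8 CPM in epididymis, a log2 fold change of -1.78 (edgeR adjusted p = 0.000156). In both, testis 4 was the highest testis library and stayed below epididymis.

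Lists of genes around the ribosome were read against all genes, of which 37.8% were called lower and 36.6% higher. Of 16 other TOP mRNAs tested, 11 fell (68.8%) and 2 rose (12.5%), with a median log2 fold change of -1.02. EEF1A1, which brings aminoacyl-tRNA to the ribosome, fell from 4989 ± 1107 to 1254 ± 564 CPM (SD, n = 5; log2 -1.97, edgeR adjusted p = 5.41e-05). Testis 4 was at 2231 CPM and the other testis libraries at 825 to 1193. PABPC1, the cytoplasmic poly(A)-binding protein, rose from 419 ± 57.5 to 901 ± 226 CPM (log2 1.12, edgeR adjusted p = 0.000274). Of 9 regulators of TOP mRNAs, 5 rose (55.6%) and 2 fell (22.2%), with a median of 0.63. LARP1, which binds the TOP tract, rose from 199 ± 40.4 to 446 ± 43.7 CPM (log2 1.20, edgeR adjusted p = 7.52e-05). For LARP1, testis 4 was at 370 CPM and the other testis libraries at 453 to 479. The S6 kinase gene RPS6KB2 fell by 2.30 (edgeR adjusted p = 0.000108).

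Of 36 ribosome biogenesis genes tested, 12 rose (33.3%, against 36.6% of all genes) and 18 fell (50%, against 37.8%), with a median of -0.47. TCOF1, a nucleolar factor for ribosomal RNA synthesis, rose from 24.8 ± 7.71 to 288 ± 27.5 CPM (log2 3.56, edgeR adjusted p = 1.49e-07), while nucleolin (NCL) fell from 360 ± 82.6 to 76.7 ± 39.1 CPM (log2 -2.22, edgeR adjusted p = 2.7e-05), and was at 146 CPM in testis 4. Of 10 RNA polymerase I genes, 3 rose and 4 fell, shares near those of all genes. POLR1A, the largest subunit of that enzyme, rose from 26.3 ± 5.75 to 169 ± 57.4 CPM (log2 2.72, edgeR adjusted p = 7.37e-06), where testis 4 was at 67.2 CPM and the other testis libraries at 187 to 208. POLR1C, a subunit shared with RNA polymerase III, fell by 0.62 (edgeR adjusted p = 0.00792).

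Of 5 chaperones of ribosomal proteins, 2 rose and 2 fell, again near the shares of all genes. HEATR3, which carries RPL5, rose by 0.62, and TSR2, which carries RPS26, fell by 1.99 (edgeR adjusted p = 0.00968 and 1.5e-06). Of 68 mitochondrial ribosomal protein genes tested, 13 rose (19.1%, against 36.6% of all genes) and 26 fell (38.2%, against 37.8%), with a median of -0.23. MRPL37 rose from 73.2 ± 9.32 to 367 ± 91.1 CPM (log2 2.34, edgeR adjusted p = 3.6e-06). Testis 4 was at 204 CPM and the others at 393 to 413. MRPS6 fell from 189 ± 196 to 25.2 ± 4.98 CPM (log2 -2.86, edgeR adjusted p = 0.000317), with a range of 88.4 to 538 CPM in epididymis. For MRPS6, testis 4 was at 16.6 CPM and the other testis libraries at 25.5 to 29.3.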

How the data were processed

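The RNA sequenced from 5 testis and 5 epididymis samples is described as poly(A) RNA, and the long-read samples were not analysed here. The small structural RNA and histone rows stand for RNA classes without a poly(A) tail. Their reads were far higher in the testis libraries other than testis 4 than in epididymis. Whether all libraries had the same RNA selection was not tested. The authors deposited raw read counts per gene with a gene length, per the file headers. Per the submitters' processing notes they used cutadapt 3.0, STAR, featureCounts (Subread) and the build Sscrofa11.1. Annotation release, strand and multi-mapping settings are not stated there or in the labels.

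Counts were tested over the whole table with edgeR 4.0.16 in R 4.3.3 (filterByExpr, TMM, robust quasi-likelihood, tissue as the only term), with Benjamini-Hochberg adjustment over 17225 genes and a threshold of 0.05. All 56 members passed the filter. A second fit scaled libraries by their summed core reads. Standard errors are the log2 fold change over the square root of F, so they are approximate. Values per library were compared by exact two-sided permutation tests in Python 3.11.15 with SciPy 1.17.1, with 0.5 reads added in paralog ratios. The p-values measure the spread between these libraries. The libraries come from amplified cDNA without molecular identifiers, so the limit of 3 reads covers counting error only. No pair of libraries was identical.

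The pairing comes from the animal number in the file headers. Deviations from the tissue means correlated at -0.00232 to 0.0907 within the 5 boars and at -0.0771 to 0.0899 between boars. Genes were named by a rule: every paralog and parent, the 5 highest and 5 lowest members, the 5 largest shifts each way, X-linked and stalk members, RPSA, and the most abundant called gene of each related list and direction; other members were named after their values were seen, and some genes the rule names are not reported here. Members, lists and rules were chosen with earlier results of these data known. Scaling, filter, tool, pairing, RNA classes, each library and the ratio settings were varied. The fits were checked on simulated data.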

Additional observations from a re-analysis of the deposited data

Results flagged for a closer look

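In groups of 5 libraries, a library was set apart where its gap to the nearest other library was over 0.71 of the range (Dixon's 95% criterion). Of 68 groups examined, 22 met it, 16 of them through testis 4. Chance gives about 1 in 20 for a group taken alone. These groups share the same libraries and many were named by their values, so that rate is no measure for the set. Testis 4 was high in RPL26L1 (37.7 CPM), RPL34 (150), RPL36AL (107), RPL37 (295), RPL37A (112), RPL4 (331), RPL5 (227), RPL7 (286), RPLP2 (538), RPS18 (306), RPS27L (17.5), RPS4X (1095) and RPS7 (694 CPM). It was low in RPS28 (153 CPM). Its summed core level was high, at 14.07 on the log2 CPM scale, and its log2 ratio of RPL10L to RPL10 counts was low, at -1.98.

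Epididymis 2 was high in RPL34 (734 CPM), RPL37 (1407) and RPS28 (651), and held the most mitochondrial reads (64534 CPM). Epididymis 4 was high in RPL7 (1233 CPM) and epididymis 5 in RPS4X (2704 CPM). In testis 5 the log2 ratio of RPL26L1 to RPL26 counts was low, at 3.43.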

How the results depend on the processing

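Of the alternatives to the counts and tests, 325 kept their direction and side of the threshold, or a count within 1.5 times; 17 counts moved further, 12 tests lost the threshold, 3 gained it and 1 changed sign. With testis 4 as the only testis library, core members called lower and higher were 25 and 0, and 1 and 1 relative to the core. The higher and lower calls of that fit were 1 and 2 for TOP mRNAs, 2 and 0 for their regulators, 7 and 5 for biogenesis, 1 and 0 for RNA polymerase I, 0 and 1 for chaperones, and 10 and 1 for mitochondrial ribosomal genes. In it, RPL29 (-0.79, adjusted p = 0.493) and RPLP0 (0.040, 0.941) changed sign. The lists held 16, 9, 36, 10, 5 and 70 genes tested in that fit, in the order given, and the core 50. Of all 18896 genes in the same fit, not scaled to the core, 23.4% were called higher and 11.4% lower. An excess of higher over lower calls was thus also the pattern of all genes. DESeq2 called 4 TOP mRNAs higher. Leaving out 1 library gave 7 (without testis 3) to 14 (without testis 4) core members higher relative to the core. DESeq2's size factors moved the median of all genes from -0.07 to 0.05, and the core counts stayed at 47 and 1.

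With the replicate block (exact tests), the summed level (-1.78, p = 0.0625), the paralog ratios of RPL10L (12.26), RPL7L1 (2.05) and RPL26L1 (1.21) and the spread over members (-0.083, p = 0.1875) missed the threshold, which exchange within 5 boars cannot reach. The block also ended the call of RPL3L (adjusted p = 0.150) and, relative to the core, those of RPL28 (0.0741), RPS28 (0.0920), RPS15 (0.0968) and RPL38 (0.0820), which left 8 higher. Mitochondrial ribosomal genes called lower fell from 26 to 21, and no other member's call changed. In exact tests the subunit ratio passed with identifier rows added (0.226, p = 0.0476) and as medians (0.670, p = 0.00794), and leaving out 1 library gave 0.0765 to 0.146. The spread was -0.054 (exact p = 0.103) with identifier rows, 0.174 as an interquartile range, and -0.0997 to -0.0660 without 1 library, with exact p = 0.0635 in 6 of 10 cases. The causes of these changes were not tested. Genes near 0 are limited by depth.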
